A study of Homo sapiens with 32 samples.

Results

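The regions described here were positions of highest ZNF143 signal that lay just inside genes. Chromatin immunoprecipitation followed by sequencing (ChIP-seq) recovers sheared DNA bound by a protein, and a peak caller then marks the base of highest signal in each enriched region, its summit. A ZNF143 summit was a member when the nearest 5′ end of a protein-coding gene (GENCODE release 44, hg38) placed it 51 to 500 bp downstream, read along the strand of that gene. The rule was met by 2202 of the 16165 ZNF143 summits on chromosomes 1 to 22 and X, and by 2202 of the 16600 lines of the whole list. The members fell at 2111 genes, 2020 of them with 1 member and 91 with 2, which was 10.6% of the 19970 protein-coding genes. They were set against 2190 summits at the same distances upstream and 1752 summits within 50 bp of a 5′ end, called summits at the start.

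All libraries came from a single clone (labelled HEK_CloneZD29) of HEK293T, a widely used human embryonic kidney line, in which ZNF143 carried a dTAG degron, a domain that lets a small molecule direct the fused protein to degradation. Cells were left untreated or received dTAGV-1 at 50 nM for 30 minutes. The 32 samples formed 10 groups: 4 untreated and 4 treated samples each for SP1, YY1 and NRF1 (spelled Nrf1 in the labels), and 2 untreated and 2 treated samples each for ZNF143, precipitated through an HA tag, and for a mock precipitation. The degron clone was common to every group, and no sample used here is labelled as cells without it. The deposited data used here were 4 summit lists, 1 per antibody, and the labels attach the ZNF143 and SP1 lists to untreated and treated samples alike. No list separated samples or treatments, so nothing below compares treated with untreated cells, there is no spread between replicates, and read depth is unknown. Each summit carries a score on a −log10 scale, a p- or q-value of the authors' peak calling. Scores were ranked, grouped by range and compared only among summits of the same list.

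ZNF143 is a zinc finger protein that binds promoters of protein-coding and small nuclear RNA genes through an element with a CCCANNATG core, often preceded by the bases ACTACA. SP1 binds GC-rich boxes, NRF1 (nuclear respiratory factor) binds the palindrome around GCGCATGCG, and YY1 binds AANATGGCG and is known to sit at or just inside transcription start sites. All 3 are common at promoters that lack tissue specificity. The 5′ end of a gene in GENCODE is that of its most upstream annotated transcript, and the transcript that Ensembl names canonical, its representative transcript, often starts further in.

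Sequence at members of high score is shown first, as 30 bases of hg38 with the matched bases in capitals, read on the strand of the match. The first set holds high-scoring members with CCCANNATG within 50 bp of the summit, and KATNAL1, whose match lies on the other strand from the gene. Capitals mark CCCANNATG and, where it precedes it, ACTACA.
CALCOCO1, chr12:53727618-53727647, minus strand: gagaactacgcctCCCAGGATGccgcggtg
MRPL24, chr1:156741179-156741208, minus strand: gcggACTACAactCCCAGCATGctgagagg
TPGS1, chr19:507881-507910, plus strand: atggacttcaactCCCAGCATGccgcgcgc
PIDD1, chr11:809613-809642, minus strand: ggcgcctacagctCCCAACATGgagcgcgg
KATNAL1, chr13:30307132-30307161, plus strand: ctgaACTACAattCCCATGATGcaccgcga

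The second set shows members among the 10 highest scores that held ACTACA and not CCCANNATG. Capitals mark ACTACA and a CCCA that follows it after 3 bases. It is shown because these summits lack the longer word and hold the element that often precedes it.
USP5, chr12:6852508-6852537, minus strand: agtgACTACAatgCCCAcagtgctccacga
FBXL19, chr16:30923334-30923363, minus strand: gggaACTACAaacaggacggcggagggcgt
ENSG00000272104, chr3:50351074-50351103, plus strand: gggaACTACAatttccatagtgctccgcgc
TLE4, chr9:79571792-79571821, minus strand: attgACTACAatcaccggcccgccatgcga
IFTAP, chr11:36594415-36594444, minus strand: aaggACTACAattCCCAgaaatcctaggga
MDH1, chr2:63588891-63588920, plus strand: gtaaACTACAgttCCCAgagagcgccgcgt

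The third set holds the highest-scoring members with the YY1 word AANATGGCG, shown because YY1 was the most frequent partner of the members. In ARFGAP2 the ATG of the word is an annotated start codon of the gene, and in the others it is not.
FASTK, chr7:151080776-151080805, minus strand: aggggctgctgggAAGATGGCGgactcggt
CNOT2, chr12:70243436-70243465, minus strand: gtcccgcggatccAAGATGGCGacgtatcc
ARFGAP2, chr11:47176840-47176869, minus strand: ctgggaaggagagAAAATGGCGgcggagcc
IFT80, chr3:160399638-160399667, minus strand: ggtccttcactcgAAAATGGCGcctaaaat

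By the canonical transcript of each gene, the summits at TPGS1, KATNAL1, USP5 and ENSG00000272104 were in introns and those at FASTK and ARFGAP2 in 5′ UTR exons. The others with printed sequence lay before the canonical start, within the span of the gene.

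Most members had low scores. Their ZNF143 scores ran from 2.01 to 65041.5 with a median of 8.81 and quartiles of 4.84 and 29.0. The median of upstream summits was 22.7 (quartiles 6.95 and 1157), and that of summits at the start was 34.5 (quartiles 10.6 and 1378). The difference in medians was -13.9 for members minus upstream summits and -25.7 for members minus summits at the start, with an adjusted p of 1e-05 in each 2-sided permutation test, the smallest that 100000 resamples give. Of the members, 160 (7.27%) were in the top 10% of all ZNF143 scores, against 509 (23.2%) of the upstream summits and 407 (23.2%) of those at the start. Summits are positions and not biological replicates, and 39.3% of the members shared a peak with another summit, so these p-values describe the lists and not repeated experiments.

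The spread among the members had 2 ends. A score under 10 was found at 1207 members (54.8%), and 643 (29.2%) lay from 10 to 100. Between 100 and 1000 there were 146 (6.63%), fewer than the 206 (9.36%) with 1000 and over. Upstream, 562 summits (25.7%) reached 1000, and at the start 482 (27.5%) did. Scores of 1000 and over were thus scarcer inside genes than on the other side of the 5′ end.

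**Figure D1:**
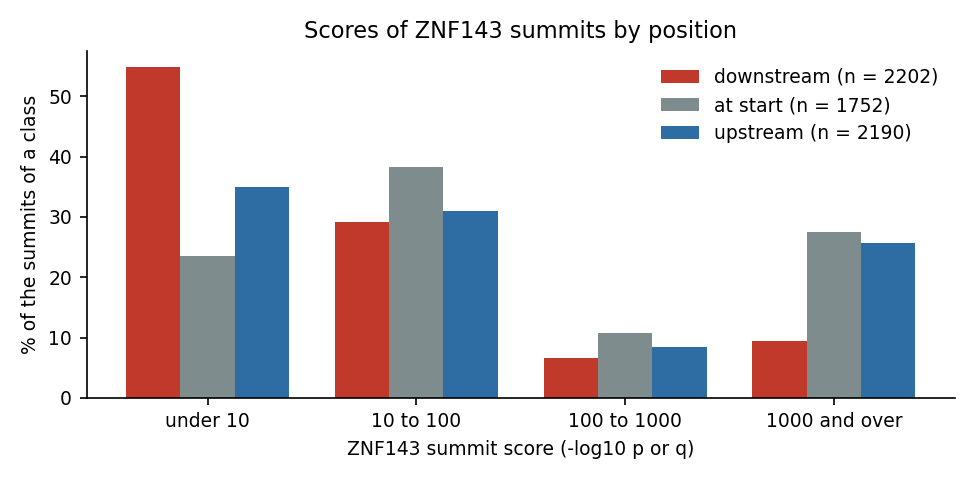
Percent of the summits of each position class (vertical axis) in 4 ranges of ZNF143 score (horizontal axis, −log10 of p or q); bars are downstream members (n = 2202), summits at the start (n = 1752) and upstream summits (n = 2190). Scores under 10 held 54.8% of the members, and scores of 1000 and over held 9.36% of them against 25.7% upstream.

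Summits were fewer with distance into the gene. The median distance of the members was 194 bp (quartiles 115 and 314), with 798 members at 51 to 150 bp, 802 at 151 to 300 bp and 602 at 301 to 500 bp. Score changed little over the same range, with medians of 9.83, 8.14 and 8.31 in those bins and a Spearman correlation of distance with score of -0.06 across the 2202 members, given as a description. At the inner limit of the rule, the 201 members at 51 to 70 bp had a median score of 16.3 and the 256 summits just outside, at 31 to 50 bp, had 15.5. At the outer limit, the 43 members at 481 to 500 bp had a median of 6.44 and the 45 summits just beyond, up to 520 bp, had 13.0.

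**Figure D2:**
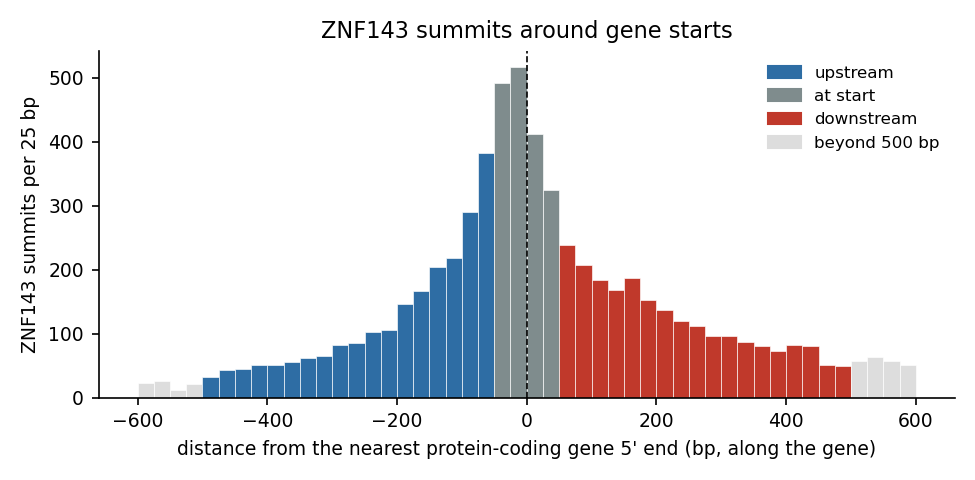
Number of ZNF143 summits per 25 bp (vertical axis) by distance from the nearest protein-coding 5′ end along the gene (horizontal axis, bp, negative upstream). The members, 51 to 500 bp downstream, decline with distance from a mode that lies within 50 bp of the 5′ end, and their median distance was 194 bp.

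The 10 highest-scoring members were at genes of varied function, and 8 of them lay before the start of the canonical transcript. The highest score of the whole list, 65041.5, was in intron 1 of USP5, a deubiquitinase, at 366 bp. IFRD2, an interferon-related regulator (score 51047, 400 bp), CALCOCO1, an autophagy receptor (44352, 135 bp), and FBXW11, an F-box subunit of ubiquitin ligases (35873.5, 81 bp), followed. FBXL19, an F-box protein of CpG islands, scored 35637 at 286 bp, and a second ZNF143 summit of that promoter, at -400 bp, scored 42229. The gene ENSG00000272104 scored 33575 at 204 bp in intron 1. TLE4, a Groucho-type co-repressor, scored 32191 at 59 bp and IFTAP, a protein of intraflagellar transport, 31600.2 at 66 bp. MRPL24 of the mitochondrial large ribosomal subunit scored 27292 at 364 bp and MDH1, the cytosolic malate dehydrogenase, 26000.3 at 265 bp.

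The same 10 members lay close to the other factors. A YY1 summit lay within 100 bp of all 10, from -93 bp at MRPL24, the minus sign marking the side of the gene start, to 34 bp at IFRD2. An SP1 summit lay within 100 bp of 9, TLE4 being the exception with its nearest at -186 bp. NRF1 was within 100 bp of 6, with NRF1 scores from 2.57 at IFTAP to 259 at IFRD2. Among all members with a ZNF143 score of 1000 and over, the shares were 64.6% for SP1, 48.1% for NRF1 and 70.4% for YY1. Among upstream summits in that range they were 78.3%, 63.3% and 67.4%, so partners near high-scoring summits were common in general. The sequence words were present at 8 of the 10 highest-scoring members. CCCANNATG was at CALCOCO1 and MRPL24, and ACTACA without it at the 6 members of the second set above. IFRD2 and FBXW11 held neither. At the low end, C11orf24 (2.01, 259 bp), the mRNA export factor GLE1 (2.01, 102 bp) and the transcription factor USF3 (2.01, 171 bp) had the lowest scores, none held either word, and each had at least 1 other factor within 250 bp.

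The position within the gene depended on which start was used. The canonical transcript began at the gene's 5′ end for 700 members (31.8%), and these had a median score of 6.80. For 701 members (31.8%) the summit lay upstream of the canonical start, and their median score was 16.3. By canonical start, 1352 members (61.4%) stayed 51 to 500 bp downstream, with a median score of 6.73. Another 281 (12.8%) lay within 50 bp of it, with a median of 17.1. Downstream is therefore true of every member by the outermost annotated start, and by the canonical start it is not true of those 701. Some transcript of the gene began within 50 bp of the summit at 690 members (31.3%), and a transcript began 51 to 500 bp further into the gene at 1018 (46.2%).

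This split followed the score. Of the 206 members with a score of 1000 and over, 108 (52.4%, Wilson 95% interval 45.6 to 59.1) lay over 50 bp upstream of the canonical start, 40 (19.4%) within 50 bp of it and 58 (28.2%) over 50 bp downstream. Of the 1207 under 10, 216 (17.9%, 15.8 to 20.2) lay upstream, 91 (7.54%) within 50 bp and 900 (74.6%) downstream. High-scoring members were thus mostly at or before the canonical start and low-scoring ones mostly inside it. Read against the canonical transcript, 599 members (27.2%) lay in a 5′ UTR exon, 572 (26.0%) in an intron, of which 567 were in intron 1, and 327 (14.9%) in a coding exon. Another 3 lay past its end. The medians were 7.98 in 5′ UTR exons, 6.69 in introns and 6.27 in coding exons.

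**Figure D3:**
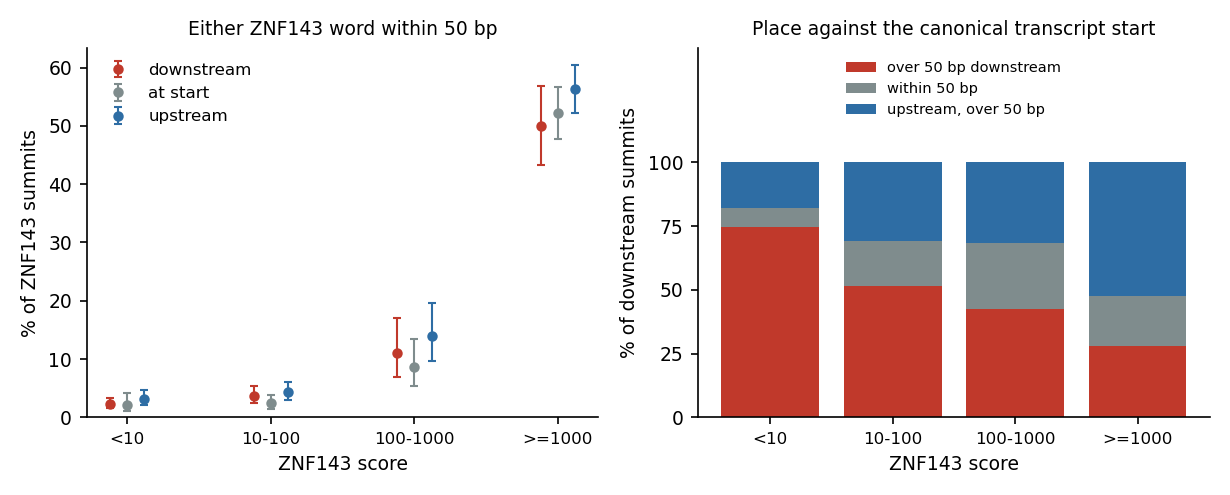
Left, percent of ZNF143 summits with CCCANNATG or ACTACA within 50 bp (vertical axis) by ZNF143 score (horizontal axis, −log10 of p or q) and position class, with Wilson 95% intervals; right, percent of the members in each score range that lay over 50 bp upstream of, within 50 bp of, or over 50 bp downstream of the canonical transcript start. The words rise from 2.24% of members under 10 to 50% at 1000 and over, and the share upstream of the canonical start from 17.9% to 52.4%.

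A second ZNF143 summit upstream of or at the 5′ end was found at a minority of the members' genes. A second member inside the same gene, as at 91 genes, was not counted in this, and no background share was worked out. Of the 2111 genes, 428 (20.3%) also had a ZNF143 summit from 500 bp upstream to 50 bp downstream of the 5′ end. Where they did, the member scored higher in 160 (37.4%, 32.9 to 42.1), and the medians were 7.66 for the member and 11.2 for the other summit. Members of genes with no such second summit had a median of 9.83, and the 3 highest of these were at USP5, IFRD2 and CALCOCO1.

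SP1 and NRF1 were less frequent at members than at the other positions, and YY1 was the most frequent partner. An SP1 summit lay within 100 bp of 976 members (44.3%), where 53.8% of all ZNF143 summits had one. The share was 63.9% upstream (odds ratio 0.449, 95% interval 0.398 to 0.507, adjusted p = 1.08e-38) and 81.8% at the start (0.177, 0.153 to 0.205, adjusted p = 2.58e-132), by 2-sided Fisher's exact tests. NRF1 lay near 677 members (30.7%), against 29.3% of all ZNF143 summits, 47.6% upstream (0.488, 0.432 to 0.552, adjusted p = 2.75e-30) and 55.5% at the start (0.355, 0.312 to 0.405, adjusted exact p = 2.52e-55). YY1 lay near 1361 members (61.8%), against 51% of all ZNF143 summits and 69.8% at the start (0.700, 0.613 to 0.80, adjusted exact p = 1.82e-07). By distance, the YY1 share of members was 70.3% at 51 to 150 bp, 64.1% at 151 to 300 bp and 47.5% at 301 to 500 bp. In these bins SP1 was near 55.5%, 37.9% and 38.0%, and NRF1 near 38.6%, 26.8% and 25.6%, differences that were not tested. The YY1 share upstream was 58.1% (1.17, 1.03 to 1.32, adjusted exact p = 0.0137), a small difference that ended or turned around with other settings: the odds ratio was 0.938 with canonical starts (adjusted p = 0.289) and 0.967 within 50 bp (adjusted p = 0.600).

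The lower SP1 and NRF1 shares were found at low and at high ZNF143 scores. SP1 was near 32.9% of members with a score under 10 and 64.6% of those with 1000 and over, where the upstream shares were 47.6% and 78.3%. NRF1 was near 24.9% and 48.1% of the members in those ranges, against 33.9% and 63.3% upstream. Among summits of at least 100, the odds ratio of members against upstream summits was 0.578 for SP1 (adjusted exact p = 0.000155) and 0.503 for NRF1 (adjusted p = 4.21e-07), settings added after the data were seen. With canonical starts the SP1 share of downstream summits was 30.7% against 70.0% upstream, an odds ratio of 0.190 (adjusted exact p = 1.53e-166). The members themselves were uneven. SP1 was near 61.5% of those over 50 bp upstream of the canonical start, 71.5% within 50 bp of it and 31.4% over 50 bp downstream. In that order the NRF1 shares were 39.2%, 44.8% and 24.3%, and the YY1 shares 59.8%, 75.1% and 59.9%. This split was not tested. YY1 near members went from 59.2% under 10 to 70.4% at 1000 and over. Against summits at the start, the lower YY1 share of members missed the threshold both at scores of at least 100 (odds ratio 0.746, adjusted exact p = 0.0536) and under 10 (0.864, adjusted p = 0.222).

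**Figure D4:**
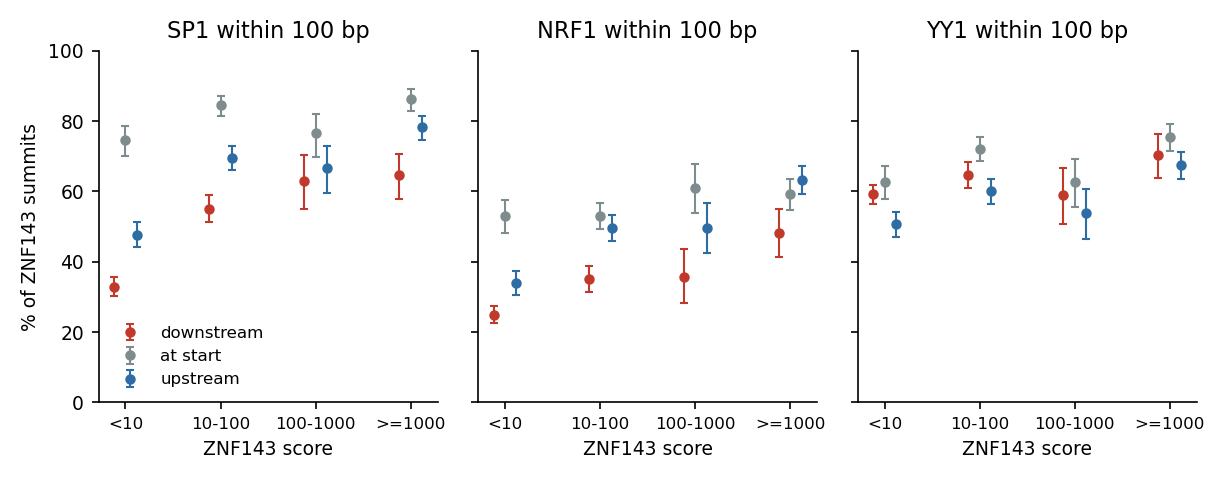
Percent of ZNF143 summits with an SP1, NRF1 or YY1 summit within 100 bp (vertical axes, 1 panel per factor) by ZNF143 score (horizontal axes, −log10 of p or q) for the 3 position classes; points are shares and bars Wilson 95% intervals. Members had the lowest SP1 and NRF1 shares of the 3 classes in every score range, and in every range their YY1 share lay between those of the other classes.

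Partners were also counted together. None of the 3 other factors lay within 100 bp of 461 members (20.9%), 1 did for 770 (35.0%), 2 for 669 (30.4%) and all 3 for 302 (13.7%). The median ZNF143 scores in that order were 6.27, 7.30, 10.7 and 20.3. For upstream summits the shares were 14.0%, 26.9%, 34.5% and 24.6%, with medians of 7.64, 12.6, 30.5 and 68.8. At the start they were 4.85%, 18.9%, 40.4% and 35.8%, with medians of 15.9, 26.9, 33.1 and 47.3. The rise of score with the number of partners was thus found in every class. YY1 alone accompanied 477 members (21.7%), against 220 upstream summits (10.0%) and 90 at the start (5.14%), shares that were not tested. Members with an SP1 summit had a median ZNF143 score of 13.8 and those without 6.75 (adjusted permutation p = 1.5e-05, from the smallest unadjusted p that the permutations give). For NRF1 the medians were 12.3 and 7.64 (adjusted permutation p = 1.5e-05), but 7.31 and 6.90 (adjusted p = 0.326) when the class was redrawn from canonical starts. For YY1 they were 9.34 and 7.64 (adjusted permutation p = 0.0019), and 6.95 and 6.77 (adjusted p = 0.326) with canonical starts. Where a partner was present, Spearman's correlation of its score with the ZNF143 score was 0.23 for SP1 (976 members), 0.28 for NRF1 (677) and 0.26 for YY1 (1361), as descriptions across positions that share libraries.

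The side on which the partners lay differed by factor. The nearest SP1 summit within 250 bp lay towards the gene start for 1146 of 1656 members (69.2%, 66.9 to 71.4, adjusted p = 8.54e-56 by a 2-sided exact binomial test against 50%), with a median offset of -43 bp, negative towards the start. NRF1 lay towards the start for 994 of 1484 (67.0%, 64.5 to 69.3, adjusted exact p = 1.56e-39), with a median of -65 bp. YY1 was nearly even, with 996 of 1901 towards the start (52.4%, 50.1 to 54.6, adjusted exact p = 0.0390) and a median of -4 bp. That YY1 share passed the threshold in the whole list and was 46.3% (adjusted exact p = 0.0494), on the other side, when each list was limited to its top 50%. The absolute distances had medians of 57 bp for YY1, 80 bp for SP1 and 112 bp for NRF1. The lists differ in length, with 126181 SP1, 106578 YY1 and 39180 NRF1 summits on the chromosomes used. Shares and distances of different factors are therefore not on an equal footing. The rule places the 5′ end on the negative side of every member. These tests against 50% therefore cannot tell a trait of the members from their position. Around upstream summits the median offsets were 29 bp for SP1, 35 bp for NRF1 and 8 bp for YY1. There a positive offset points towards the gene start, so SP1 and NRF1 lay on that side in both classes.

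**Figure D5:**
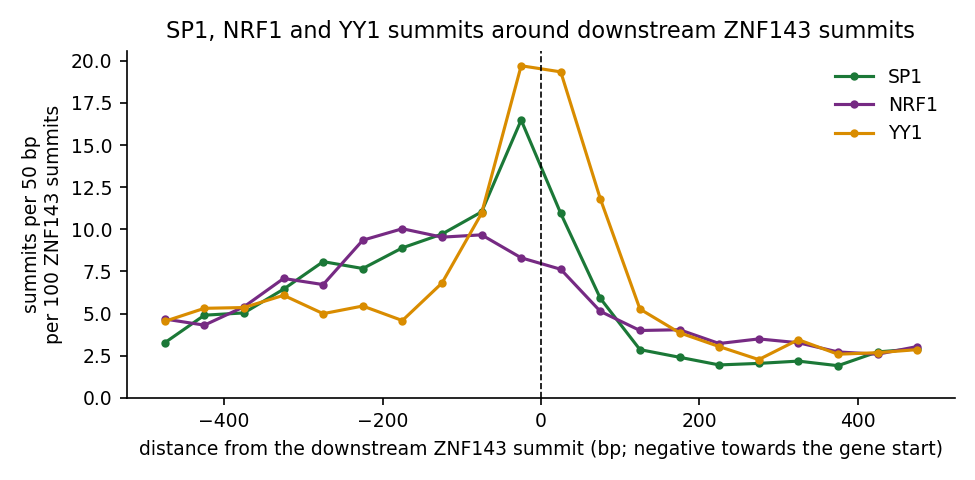
SP1, NRF1 and YY1 summits per 50 bp per 100 members (vertical axis) by distance from the member (horizontal axis, bp, negative towards the gene start). YY1 was near symmetric, with 19.7 summits per 100 members in the bin before and 19.3 in the bin after, SP1 peaked at 16.5 just before the member and fell to 2.86 at 100 to 150 bp beyond it, and NRF1 was highest on the side of the gene start, at 10.0 from 200 to 150 bp.

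The highest-scoring YY1 summit within 500 bp of the 5′ end of a member's gene was itself mostly inside the gene. Its median position was 138 bp downstream, and 73.7% of such summits lay over 50 bp downstream, against 31.6% at genes of upstream summits and 40% at genes with a summit at the start. The corresponding median positions at members' genes were 33 bp downstream for SP1 and 11 bp downstream for NRF1. The share over 50 bp downstream was higher at members' genes for these factors too. For SP1 it was 46.2%, against 9.04% at genes of upstream summits and 14.7% at genes with a summit at the start. For NRF1 it was 41.3%, against 16.4% and 25.3%. The partners themselves were high in their own lists, as they were at the other positions. The SP1 summits near members had a median SP1 score of 256 against 14.0 in that list, the NRF1 summits 30.4 against 6.16, and the YY1 summits 219 against 15.0. The corresponding medians were 372, 56.3 and 207 near upstream summits and 282, 44.9 and 362 near summits at the start.

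A small group had no partner by a limit of 250 bp. No summit of the other lists lay within 250 bp of 97 members (4.41%), whose median score was 6.27, against 66 upstream summits (3.01%) and 20 at the start (1.14%). The highest were at PANK4, a pantothenate kinase family protein (7039), the zinc finger factor MZF1 (4815), the lysosomal membrane protein GPR137 (2038) and PLPP7, of the phospholipid phosphatase family (1176). Partners lay not far past the limit at PANK4 (YY1 at -267 bp), MZF1 (SP1 at -305 bp) and GPR137. At GPR137 these were YY1 at -301 bp, SP1 at -336 bp and NRF1 at -467 bp. The nearest at PLPP7 was an SP1 summit at -6518 bp. PANK4 and PLPP7 held ACTACA, MZF1 held CCCANNATG on the strand opposite to the gene, and GPR137 held neither. Only 4 members lay in stretches where the numbering of the NRF1 or YY1 list skips, so missing NRF1 or YY1 summits there touch few of these counts.

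Sequence words were searched on both strands, wholly within 50 bp of the summit, and again in windows of the same width placed 400 bp further into the gene. CCCANNATG was found at 68 members (3.09%), where 6.63% of all ZNF143 summits held it, and at 25 flanks (1.14%), a ratio of 2.72 (adjusted p = 1.14e-05, exact McNemar test). Windows centred 194 bp downstream of all 19970 genes held it in 1.51%. The share was lower than the 5.71% of upstream summits (odds ratio 0.526, 0.389 to 0.712, adjusted p = 2.42e-05) and the 6.45% of summits at the start (0.462, 0.340 to 0.629, adjusted p = 1.47e-06, Fisher's exact tests). The centre of the word lay a median of 25 bp from the summit. Within 25 bp of the summit the ratio over the flanks was 2.07 and missed the threshold (adjusted exact p = 0.0518).

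The shorter element ACTACA, looked for after the data had been seen, was more frequent, and mostly at the highest scores. It was at 112 members (5.09%), 54 of their flanks (2.45%) and 2.0% of the windows of all genes. The share was 0.829% (10 of 1207, 0.451 to 1.52) under 10 and 43.2% (89 of 206, 36.6 to 50.03) at 1000 and over. It was 1.56% (10 of 643, 0.847 to 2.84) from 10 to 100 and 2.05% (3 of 146, 0.701 to 5.87) from 100 to 1000. These last 2 intervals hold the 2.45% of the flanks, which is a share over all members. The interval under 10 lies below it. CCCA followed it after 3 bases at 68 of the 112 members (60.7%), and it stood 3 bases before CCCANNATG at 12 of the 68 members with that word. Upstream summits held ACTACA in 14.8% and summits at the start in 12%. At scores of 1000 and over, either word was found at 103 members (50%, 43.2 to 56.8), 317 upstream summits (56.4%, 52.3 to 60.4) and 252 at the start (52.3%), so the intervals overlapped between members and upstream summits in that range.

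High-scoring members with CCCANNATG were at CALCOCO1, MRPL24, TPGS1 (a subunit of the tubulin polyglutamylase complex, 15412), SNX16 (a sorting nexin of endosomes, 15112) and PIDD1 (a death domain protein activated by p53, 12875). In these 5 the word read along the strand of the gene, as the printed sequences of CALCOCO1, MRPL24, TPGS1 and PIDD1 show. Over all members with the word on a single strand, 44 of 67 (65.7%, 53.7 to 75.9) had it on the gene's strand (adjusted p = 0.0418, exact binomial test against 50%). The share was 60.2% upstream (odds ratio 1.27, 0.681 to 2.36, adjusted exact p = 0.632) and 61.3% at the start (1.21, 0.643 to 2.28, adjusted p = 0.632), intervals that hold differences in either direction. The excess on the gene's strand missed the threshold with canonical starts (60%, adjusted exact p = 0.608) and with 1 summit per gene (65.2%, adjusted p = 0.0560).

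The YY1 word AANATGGCG was more frequent at members than at flanks on either side. It was at 67 members (3.04%) and 5 flanks (0.227%), a ratio of 13.4 (adjusted exact p = 2.56e-14), and in 0.691% of the windows of all genes. Flanks 400 bp further upstream instead gave a ratio of 2.79 (adjusted exact p = 1.47e-05), below the 4.86 of CCCANNATG with those flanks (adjusted exact p = 2.57e-09), so the order of the 2 words depended on the flank. Of the 67, 53 had the word on the gene's strand, 63 had a YY1 summit within 100 bp, and in 30 its ATG was an annotated start codon of the gene. Their median ZNF143 score was 18.1 and their median distance 215 bp. The highest scores were at FASTK, a founding member of the mitochondrial FAST kinase protein family (6637), CNOT2 of the CCR4-NOT deadenylase (4079), ARFGAP2, an Arf GTPase-activating protein (2456), and IFT80 of intraflagellar transport (2348), the third set of sequences above. Members within 50 bp of the canonical start held the word in 10.7%, those over 50 bp downstream of it in 2.07% and those over 50 bp upstream in 1.58%. The word was not particular to members. Under a score of 10 it was at 1.74% of members, 4.13% of summits at the start and 1.05% upstream. In the same order the shares were 4.04%, 7.30% and 2.95% from 10 to 100, and 5.48%, 10.2% and 6.45% from 100 to 1000. At 1000 and over they were 5.83%, 4.15% and 1.25%, and none of these contrasts was tested.

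The GC box GGGGCGGGG, bound by SP1, gave no steady contrast. It was at 102 members (4.63%) and 67 flanks further into the gene (3.04%), a ratio of 1.52 (adjusted exact p = 0.0111), while flanks 400 bp further upstream held it more often, at a ratio of 0.703 (adjusted p = 0.00747). It was found in 3.18% of the windows of all genes. GCGCATGCG, the NRF1 word, was rare, at 9 members (0.409%) and 3 flanks (adjusted exact p = 0.146), a ratio of 3.00, and it was found in 0.190% of the windows of all genes. That ratio passed the threshold for words within 100 bp (4.67, adjusted exact p = 0.00026) and for members over 100 bp from the 5′ end (9, adjusted exact p = 0.0215). Both ratios rest on few matches. The shares of summits and flanks were 1.27% and 0.272% in the first setting and 0.511% and 0.0568% in the second. With upstream flanks the ratio was 0.600 (adjusted exact p = 0.307). A match is a string of letters and not a bound site, and its absence says only that the window lacks those letters.

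Gene starts on the opposite strand lay near many members. A protein-coding or long non-coding RNA (lncRNA) gene began on the other strand within 500 bp of 658 members (29.9%), against 15.3% of all ZNF143 summits, many of which lie over 500 bp from a protein-coding 5′ end. The share was 25.5% for upstream summits (odds ratio 1.24, 1.09 to 1.42, adjusted exact p = 0.002) and 34.5% for summits at the start (0.808, 0.706 to 0.924, adjusted p = 0.002). With canonical starts the contrast with upstream summits turned to 0.900 (adjusted exact p = 0.101). The rule bears on these counts, since a protein-coding start nearer to the summit than that of its own gene cannot occur. Members with such a start had a median score of 9.83 and those without 8.36 (2-sided permutation test, p = 0.0181), and with canonical starts the medians were 7.31 and 6.90 (p = 0.217).

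The opposite start stood in 1 of 3 places. At 377 members (17.1%) it lay at or upstream of the gene's own start, so that the genes diverged, with 215 protein-coding and 162 lncRNA genes. This arrangement was found at 19.5% of upstream summits and 25.5% of those at the start. ENSG00000272104 faces NPRL2, a subunit of the GATOR complex, in this way, with the NPRL2 start at -270 bp from the summit, and PIDD1 faces the ribosomal stalk protein gene RPLP2, whose start is at -357 bp. At 195 members (8.86%) the opposite gene began further in than the summit, for 68 protein-coding and 127 lncRNA genes. There the genes overlapped and the summit lay downstream of both starts. Genes overlapped by their starts in this way at 5.98% of upstream summits and 8.85% of those at the start. At 86 members (3.91%) an lncRNA gene began between the gene start and the summit, a median of 69 bp from the summit. The summit was then upstream of the lncRNA. By definition this cannot occur at upstream summits, and it was found at 0.171% of summits at the start. The median score of these 86 members was 15.2, against 8.80 for the divergent and 10.6 for the overlapping arrangement. Neither the shares of the arrangements nor these scores were tested.

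The highest-scoring members downstream of both starts were at 4 gene pairs. NFKBIB, which encodes an inhibitor of NF-kappa-B, and SIRT2, a deacetylase, overlap by their starts, and the summit between them scored 13013, 72 bp inside NFKBIB and 90 bp inside SIRT2. CLHC1 and RPS27A, a ubiquitin-ribosomal protein fusion gene, shared a summit with a score of 8004, 169 bp inside CLHC1 and 491 bp inside RPS27A, which held both words. The readthrough gene BORCS7-ASMT (7981, 206 bp) and the transcription factor gene RFX1 (7832, 319 bp) each overlapped an lncRNA gene. FBXL19 is a member of the third arrangement: its antisense lncRNA FBXL19-AS1 began at -72 bp from the summit, on the side of the FBXL19 start.

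Among gene families defined by symbol, most of the housekeeping families had a member at a higher share of their genes than the 10.6% of all protein-coding genes. The shares were 31.4% of aminoacyl-tRNA synthetases (11 of 35, Wilson interval 18.6 to 48.0), 23.3% of small nuclear ribonucleoproteins (7 of 30), 23.1% of mitochondrial ribosomal proteins (18 of 78) and 21.8% of translation initiation factors (12 of 55). They were 21.7% of respiratory complex I genes (10 of 46), 21.1% of replication-dependent histones (16 of 76), 20.6% of chaperonin and mitochondrial import chaperone genes (7 of 34) and 19.0% of cytosolic ribosomal proteins (16 of 84). Zinc finger genes named ZNF (71 of 508, 14.0%), proteasome subunits (5 of 39, 12.8%) and RNA polymerase subunits (3 of 34, 8.82%) were nearer to the background. None of 413 olfactory receptor genes had a member, with a Wilson upper bound of 0.922%. The same families often had a ZNF143 summit at any of the 3 positions. It was present at 52 of the 78 mitochondrial and 58 of the 84 cytosolic ribosomal protein genes, 31 of the 55 initiation factor genes and 22 of the 30 small nuclear ribonucleoprotein genes, against 5471 of all 19970 genes. Counted among those genes only, a downstream member was present at 18 of 52, 16 of 58, 12 of 31 and 7 of 22, against 2111 of 5471 over all genes, so on that count initiation factors were level with all genes and the other 3 families below them. Also below all genes were the chaperonin family (7 of 24), proteasome subunits (5 of 26), RNA polymerase subunits (3 of 16) and ZNF genes (71 of 259). Synthetases (11 of 20), complex I genes (10 of 20) and histones (16 of 28) had a larger share than all genes. The families were not tested, and being expressed in HEK293T, which these lists do not measure, was not held constant.

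The median scores of the families lay on both sides of the 8.81 of all members. They were 6.27 for synthetases, 6.16 for small nuclear ribonucleoproteins and 4.26 for histones. Higher medians were found for complex I genes (21.3), ZNF genes (20.4), chaperonin and import chaperone genes (14.6), cytosolic (13.8) and mitochondrial (10.3) ribosomal proteins and initiation factors (9.54). Single members were high in several. ZNF140 (18273, 252 bp), ZNF133 (14208, 120 bp) and ZNF500 (12665, 365 bp), all zinc finger genes, led their family. RPL15, of the cytosolic large subunit, scored 10331 at 489 bp, or -52 bp from its canonical start, and POLR1B, the second-largest subunit of RNA polymerase I, 5111 at 465 bp. TCP1, a chaperonin subunit, scored 3635 at 55 bp, CARS1, the cysteinyl-tRNA synthetase, 2743 at 95 bp, and NDUFA3 of complex I 2408 at 96 bp. Among the histone genes the highest was H2AC25, a replication-dependent H2A, at 13.0 within its coding exon.

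The genes of 2 of the factors studied carried a member themselves. Inside the ZNF143 gene a summit at 450 bp scored 4395 and lay at -243 bp from the canonical start, with an SP1 summit at 46 bp (score 5484), an NRF1 summit at 49 bp (score 20.4) and a YY1 summit at -55 bp (score 9638). Neither CCCANNATG nor ACTACA was within 50 bp of it. Inside the YY1 gene a summit at 413 bp scored 12.2 and lay at -433 bp from the canonical start, with an SP1 summit at 31 bp, an NRF1 summit at -56 bp and the nearest YY1 summit at 142 bp.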

How the data were processed

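ChIP-seq summit lists were used as deposited. Column 5 of each deposited list holds a −log10 p-value or q-value in the layout of a MACS-type caller, and which of these is not given in the sources used here. The submitters' processing notes name cutadapt, Bowtie2, SAMtools 1.16.1, MACS3, bedtools and hg38, with no role for each. The labels name no list for the NRF1 and YY1 samples, and theirs were taken by antibody. Scores and list lengths grow with read depth, which is unknown, so scores were compared within a list only.

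Distances were taken to the 5′ ends of protein-coding genes in GENCODE 44, with 435 summits on other contigs left out. Shares carry Wilson 95% intervals. Tests were Fisher's, McNemar's and binomial exact tests and permutation tests on differences of medians (100000 resamples), all 2-sided, adjusted by Benjamini-Hochberg within each family, threshold 0.05 (Python 3.11.15, scipy 1.17.1, pysam 0.24.0). Sequences were read from hg38. Assignment, search and tests were tested on simulated data. Named members were the 10 highest scores, the 6 highest with CCCANNATG (1 of them is not reported here), the 4 highest without another factor within 250 bp, the 4 highest downstream of both opposite starts, the 3 highest without a second summit, the 3 lowest, up to 3 per family, and the genes of the factors; members with ACTACA or the YY1 word were named after their values were seen. Members, families and tests were chosen with earlier results of these data known. Alternatives changed starts, distances, words, flanks, list depth and summits per gene. No sample entered separately, so untreated and treated cells were not compared.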

Additional observations from a re-analysis of the deposited data

How the results depend on the processing

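Of 221 values over 26 results and 19 alternative settings, 180 kept their direction and side of the threshold, 26 lost the threshold, 2 gained it and 13 changed direction. The lower scores of members and their lower SP1 and NRF1 shares kept both under every setting run on them. No paired analysis was possible because the lists give no value per sample. The cause of the changes below was not tested.

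The YY1 odds ratio against upstream summits was 1.10 in the top 50% of each list, 0.938 with canonical starts, 1.11 at over 100 to 500 bp, 1.03 at 51 to 1000 bp, 0.967 within 50 bp, 1.14 within 250 bp and 1.07 at scores of at least 100. Against summits at the start it was 0.746 at scores of at least 100 and 0.864 under 10, settings chosen after seeing the data, as was ACTACA in place of CCCANNATG. The score difference by partner was 0.410 for NRF1 with canonical starts, and for YY1 0.981 in the top 50%, 0.181 with canonical starts and 1.34 within 250 bp. The YY1 share towards the start was 52.2% with 1 summit per gene, 46.3% in the top 50%, 51.5% at 51 to 1000 bp and 50.04% within 100 bp.

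For words over flanks, the ratio for ZNF143 was 2.07 within 25 bp. For SP1 it was 1.50 with canonical starts, 1.08 within 25 bp and 0.703 with upstream flanks, and for NRF1 9 at over 100 to 500 bp and 4.67 within 100 bp, both past the threshold, and 0.600 with upstream flanks. The share of CCCANNATG on the gene's strand was 65.2% with 1 summit per gene, 60% with canonical starts and at over 100 to 500 bp, 61% at 51 to 1000 bp and 55.6% with the 10-base degenerate consensus. Its odds ratio against upstream summits was 0.916 with canonical starts, 0.772 with the degenerate consensus and 0.954 with ACTACA, and against summits at the start 0.845 at over 100 to 500 bp, 0.989 at 51 to 1000 bp, 0.943 within 100 bp and 0.925 with ACTACA. The opposite-start odds ratio against upstream summits was 0.900 with canonical starts and 1.07 at 51 to 1000 bp, and against summits at the start 0.873 in the top 50%. The score difference by opposite start was 4.64 in the top 50% and 0.410 with canonical starts.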
